A study of Homo sapiens with 2 samples.

Results

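The striated muscle actin and myosin heavy chain genes were examined for H3K9me3 in KBM7, an established leukemia cell line (chronic myeloid, near-haploid), which is not a muscle cell. The set was given by name and holds 10 genes of the 35812 gene symbols in the table: the actins ACTA1 and ACTC1, the cardiac myosins MYH6 and MYH7, and the 6 myosins of the cluster on chromosome 17 (MYH13, MYH8, MYH4, MYH1, MYH2 and MYH3). Each was found once. The study made 1 chromatin immunoprecipitation library with antibody ab8898 against H3K9me3 and 1 with IgG, from the same line, crosslinked with formaldehyde. The values here come from the H3K9me3 library; the IgG values are not analysed here, so no value has a replicate or a control beside it and no test between samples was made.

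Actin and myosin heavy chain form the thin and thick filaments of the sarcomere, the contractile unit of skeletal and cardiac muscle. Muscle cells switch between the heavy chain genes during development and according to fibre type, and other lineages use the cytoskeletal forms ACTB, ACTG1 and MYH9. H3K9me3 is a histone mark of heterochromatin, laid down over repeats and over some silent gene clusters, and it is bound by HP1 proteins.

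The gene score is the number of reads in a gene interval divided by its length in kb, and all scores below are levels in reads per kb with a 95% exact Poisson interval. The interval covers counting error only, and reads are not independent molecules. Over all symbols the score had a median of 43.5, a 10th percentile of 14.4 and a 90th percentile of 147, and over 18698 protein-coding symbols the median was 34.3. The library had 126965 peaks with a median width of 900 bp, which covered 6.25% of chromosomes 1 to 22 and X. None of the 10 genes lies on chromosome 8 or between 60 and 90 Mb of chromosome 15, the parts of which KBM7 is known to carry an extra copy.

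Of the 10 genes, 9 scored above the median of all symbols, and 9 contained a peak. By definition 50% of symbols lay above that median, and 37.5% of protein-coding symbols did. A peak was present in 36.8% of all symbols and in 43.6% of protein-coding ones. A longer interval is more likely to contain a peak, and these shares were not matched for length. The median of the 10 scores was 67.2 and their range ran from 35.6 for MYH3 to 155 for ACTA1. Only ACTA1 passed the 90th percentile of all symbols, which 10.0% of all symbols and 2.72% of protein-coding ones did. Peaks took up 50% or more of the interval in ACTA1 and MYH7, against 5.55% of all symbols and 4.32% of protein-coding ones. A median of 6.74% of the interval lay in peaks over the 10 genes, against a median of 0% over all symbols and over protein-coding ones. The mean was 19.7% over the 10 genes, 8.09% over all symbols and 7.27% over protein-coding ones. Over the 6 myosins of the chromosome 17 cluster alone it was 4.47%, below both of these shares. In cover the 9 genes with a peak lay between the percentiles 69.8 and 97.7 of all symbols. Any symbol with a peak ranks above all symbols without one, so these percentiles are high by construction. The lowest of them belonged to MYH4, with 2.28% of its interval in peaks. Several of the myosin intervals share reads, as given below, and the 10 genes are thus fewer than 10 separate measurements.

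**Figure D1:**
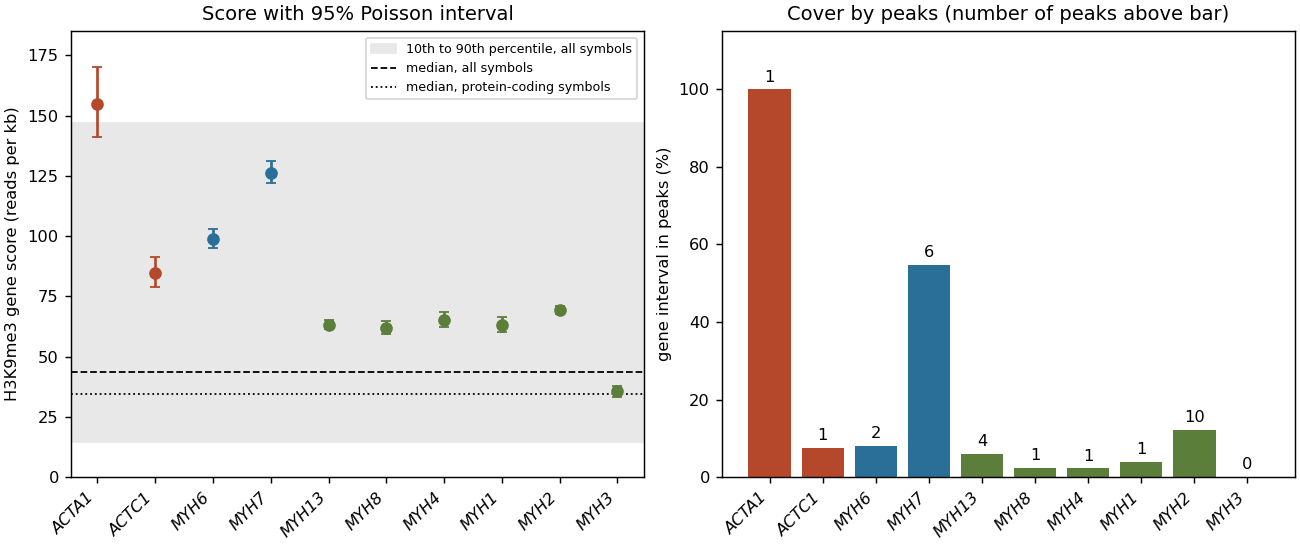
Left, H3K9me3 gene score in reads per kb for the 10 genes, with 95% Poisson intervals as bars, the 10th to 90th percentile of all symbols as a grey band and the medians as lines. Right, the percent of each gene interval in peaks, with the number of peaks above each bar; ACTA1 lies wholly in 1 peak, and MYH3 has 0.

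In order of level, ACTA1 (155) stood above MYH7 (126), MYH6 (98.8), ACTC1 (84.9) and MYH2 (69.2), followed by MYH4 (65.2), MYH13 and MYH1 (both 63.3), MYH8 (61.9) and MYH3 (35.6). Neighbours in the upper part of this order differed by more than counting error: ACTA1 over MYH7 was 1.22 (1.11 to 1.35), MYH6 over ACTC1 1.16 (1.07 to 1.27) and ACTC1 over MYH2 1.23 (1.13 to 1.33). The levels of MYH4, MYH13, MYH1 and MYH8 could not be separated at this depth. MYH4 over MYH13 was 1.03 (0.973 to 1.09), MYH13 over MYH1 1.00 (0.946 to 1.06) and MYH1 over MYH8 1.02 (0.957 to 1.09). MYH8 over MYH3 was 1.74 (1.61 to 1.88).

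ACTA1, the actin of skeletal muscle thin filaments, had the highest score of the set. Its interval of 2.854 kb at chr1:229566992-229569845 (hg19, minus strand) held 442 reads, a score of 155 (141 to 170). That was 4.55 times the median of chromosome 1 intervals of 1 kb or more, 34.0. A single peak of 3900 bp at chr1:229566901-229570800 covered the whole gene, reached 955 bp upstream of its start and ended 91 bp past its other end. Of all peaks, 93.7% were narrower. The nearest intervals of 1 kb or more on both sides had low scores and no peak: NUP133, a nuclear pore gene 7199 bp away, scored 14.9 on 1000 reads, and C1orf96, at 87951 bp on the other side, scored 26.3 (24.2 to 28.5). The score of ACTA1 was 10.4 times that of NUP133 (9.26 to 11.6). Within 500 kb on each side, 16.1% of the sequence lay in peaks, against 5.30% of chromosome 1, and the 14 other intervals of 1 kb or more there had a median score of 26.3.

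ACTC1, the main actin of heart muscle, had a lower score and little peak cover. Its 8.044 kb at chr15:35080297-35088340 (minus strand) held 683 reads, or 84.9 (78.7 to 91.5), at the percentile 78.4 of all symbols and 89.0 of protein-coding ones. The only peak inside it was 600 bp wide, at chr15:35082301-35082900, and filled 7.46% of the interval; it began 5440 bp downstream of the start. The interval lies wholly within RP11-814P5.1, an opposite-strand interval of 57.8 kb that scored 74.9 (72.7 to 77.2) and shares its reads. GJD2, a gap junction gene 33131 bp away, scored 108 (98.2 to 119) with 1 peak, and AQR, 59392 bp away on the other side, scored 27.2 (26.3 to 28.2). ACTA1 over ACTC1 was 1.82 (1.61 to 2.06).

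The sequences upstream of both actin genes are shown because a peak lay over the start of the first and not of the second. A window from 250 bases before to 50 bases after the start of each hg19 interval lay wholly in peaks at ACTA1 and had none at ACTC1. The sequences are the 250 bases before the start in RefSeq, on GRCh38.p14, the minus strand, chr1:229434095-229434344 for ACTA1 and chr15:34795550-34795799 for ACTC1; their positions were not carried over to the hg19 peaks. Capitals mark the CArG box (a run of A or T between a C pair and a G pair), the site of serum response factor, which was searched on both strands.
ACTA1: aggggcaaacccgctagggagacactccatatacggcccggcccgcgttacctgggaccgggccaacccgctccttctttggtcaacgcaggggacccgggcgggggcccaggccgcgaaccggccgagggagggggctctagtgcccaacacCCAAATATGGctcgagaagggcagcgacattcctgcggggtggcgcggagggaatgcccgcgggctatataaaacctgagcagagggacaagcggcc
ACTC1: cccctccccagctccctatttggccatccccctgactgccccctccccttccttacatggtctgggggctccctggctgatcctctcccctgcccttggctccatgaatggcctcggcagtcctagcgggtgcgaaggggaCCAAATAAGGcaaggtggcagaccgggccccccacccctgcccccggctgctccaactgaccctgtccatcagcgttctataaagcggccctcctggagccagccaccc
The CArG box begins 97 bases before the start in ACTA1 and 109 in ACTC1, and 1.16% of the 35116 RefSeq windows of this length hold one. Both also contain TATAAA, beginning 30 and 31 bases before the start, as do 10.7% of windows. Their GC content was 67.2% and 66.0%, against a median of 58.0% over all windows. Their CpG content differed more: the observed over expected ratio was 0.783 in ACTA1 and 0.280 in ACTC1, with a median of 0.558 over all windows. ACTC1 has 3 windows in RefSeq, and the one farthest upstream is printed.

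The cardiac myosin genes MYH6 and MYH7 lie in tandem on chromosome 14, and both scored high. MYH7, the slow beta heavy chain of ventricle and slow skeletal fibres, held 2907 reads over 22.98 kb at chr14:23881947-23904927, a score of 126 (122 to 131). MYH6, the alpha heavy chain of atrium, held 2598 reads over 26.29 kb at chr14:23851199-23877486, or 98.8 (95.1 to 103). Their intervals do not overlap, and MYH7 over MYH6 was 1.28 (1.21 to 1.35). Both are on the minus strand, so MYH7 ends 4.46 kb before MYH6 begins. They lay at the percentiles 87.8 and 82.8 of all symbols and 96.0 and 92.6 of protein-coding symbols.

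Peak cover separated the cardiac pair more widely than the score did. MYH7 had 54.8% of its interval in 6 peaks, with 42.3% of its first 50% and 67.4% of its last 50% covered. MYH6 had 8.13% covered by 2 peaks, all of it in its first 50%. A peak of 6000 bp at chr14:23877301-23883300, wider than 97.4% of all peaks, filled the whole stretch between the genes; it took in the last 1354 bp of MYH7 and the first 186 bp of MYH6. The start of MYH6 was thus in a peak, and the nearest peak to the start of MYH7 lay 5974 bp upstream of it, with the nearest inside the gene 6627 bp from the start. The other peak of MYH6, 1950 bp wide, began 10386 bp downstream of the start. From the start of MYH7 to the end of MYH6, a span of 53.7 kb, 35.7% of the sequence lay in 7 peaks, against 5.18% of chromosome 14. The surroundings also had more cover than the chromosome. Within 500 kb on each side, 14.4% lay in peaks around MYH6 and 13.9% around MYH7, where each flank takes in the other gene.

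The genes directly beside the cardiac pair scored lower. NGDN, 33970 bp beyond MYH7, scored 18.8 (17.5 to 20.2) with no peak, and MYH7 over NGDN was 6.71 (6.20 to 7.28). On the MYH6 side CMTM5, 2218 bp away, scored 26.6 (21.1 to 33.2), IL25 scored 56.7 (49.2 to 65.1), and both had no peak, whereas EFS, 16238 bp away, scored 140 (132 to 148) with 63.5% of its length in peaks. The 36 intervals within 500 kb of MYH6 had a median of 19.8. The introns of both genes hold a microRNA of the heart: MIR208A in MYH6 scored 446 (314 to 614) on 37 reads, outside any peak, and MIR208B in MYH7 scored 727 (549 to 944) on 56 reads, inside one. These intervals are 0.0830 and 0.0770 kb long, shorter than the sheared fragments, so their scores per kb cannot be set beside those of the host genes.

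**Figure D2:**
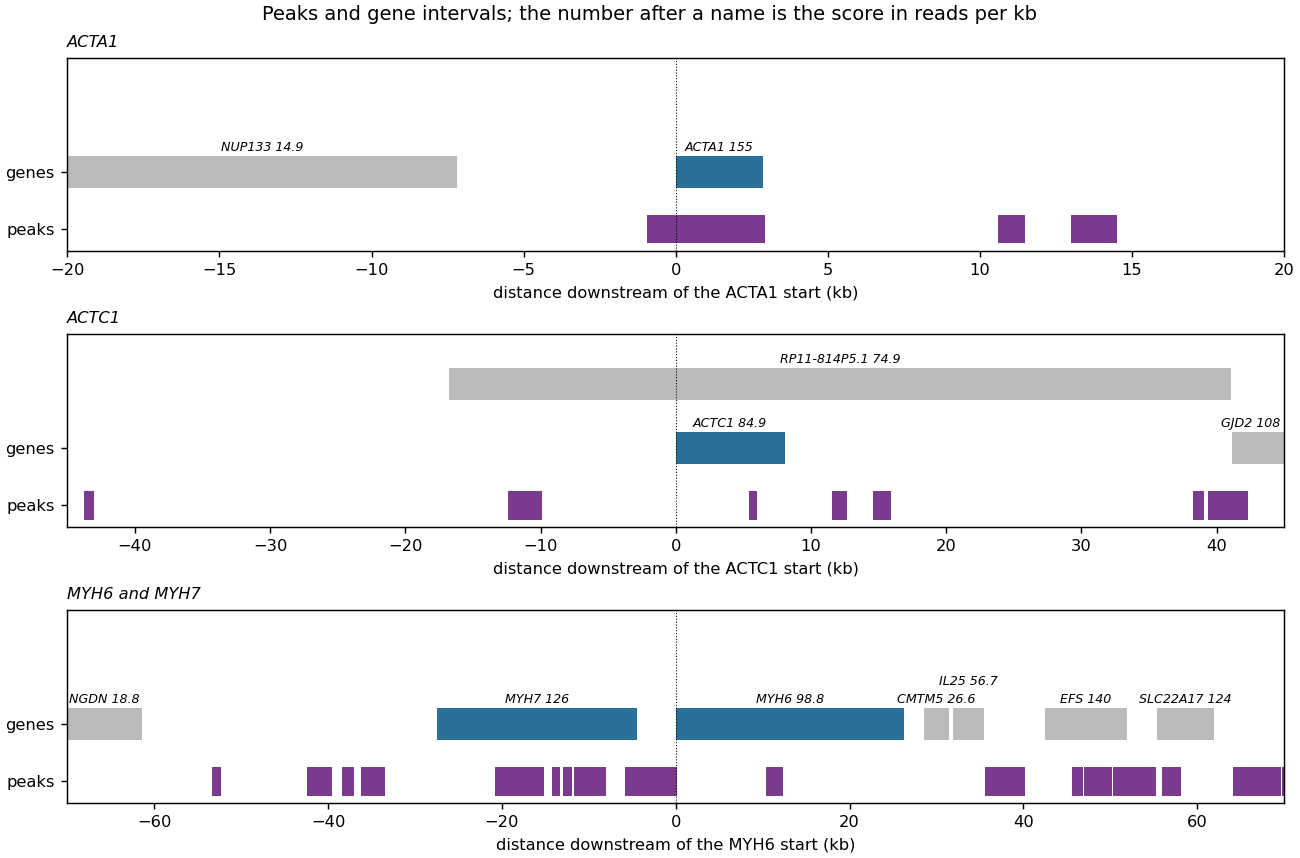
Gene intervals of 1 kb or more and peaks around ACTA1, ACTC1 and the pair MYH6 and MYH7, by distance in kb downstream of the start of ACTA1, ACTC1 and MYH6; the genes of the set are blue, other genes grey and peaks purple. One peak covers all of ACTA1, a narrow one lies in ACTC1, and peaks fill most of MYH7 and the stretch up to MYH6.

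The upstream sequence of MYH6 is shown because its start lay in the 6000 bp peak. It spans chr14:23408274-23408523 (GRCh38.p14, minus strand, RefSeq), and the capitals mark TATAAA, searched on both strands.
MYH6: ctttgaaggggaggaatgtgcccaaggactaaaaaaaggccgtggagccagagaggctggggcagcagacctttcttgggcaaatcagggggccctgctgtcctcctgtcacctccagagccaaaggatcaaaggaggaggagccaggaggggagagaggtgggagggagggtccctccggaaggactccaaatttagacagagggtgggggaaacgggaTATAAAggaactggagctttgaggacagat
TATAAA begins 30 bases before the start. The window has a GC content of 56.8% and a CpG ratio of 0.166, which is higher than in 18.8% of RefSeq windows, and it holds no CArG box. It also lacks CANNTG, the E-box bound by MYOD1 and other helix-loop-helix factors, which 61.8% of windows hold.

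The 6 myosins of chromosome 17 lie in one orientation over 355 kb at chr17:10204183-10559465 (hg19), all on the minus strand. In order along the chromosome they are MYH13, MYH8, MYH4, MYH1, MYH2 and MYH3. MYH13 is the form of extraocular muscle, MYH8 the perinatal form and MYH3 the embryonic form. MYH4, MYH1 and MYH2 encode the fast forms IIb, IIx and IIa. The first 5 along the chromosome had nearly equal scores, from 61.9 to 69.2, between 1.42 and 1.59 times the median of all symbols. They were between 2.44 and 2.72 times the median of chromosome 17, 25.4. The chromosome 17 median is over intervals of 1 kb or more and that of all symbols over every length, so the 2 are not alike. MYH3 had 35.6 (33.4 to 37.8), below the median of all symbols and above that of chromosome 17. Summed over the 6 intervals, 16734 reads gave 62.3 reads per kb (61.4 to 63.3), a sum in which shared reads count more than once.

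MYH13 held 4570 reads over 72.14 kb (chr17:10204183-10276322), a score of 63.3 (61.5 to 65.2), with 6.03% in 4 peaks. Its nearest peak to the start began 1922 bp inside the gene. MYH8 held 1958 reads over 31.63 kb (chr17:10293639-10325267), a score of 61.9 (59.2 to 64.7), with 2.37% in 1 peak. MYH4 held 1713 reads over 26.27 kb (chr17:10346607-10372876), a score of 65.2 (62.2 to 68.4), and its 1 peak of 600 bp filled 2.28%. The perinatal, extraocular and IIb genes were thus alike in score, and all 3 had peaks away from the start.

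The listed intervals of MYH4, MYH1 and MYH2 overlap. That of MYH2 runs from chr17:10368772 to 10453274, 84.50 kb with 5851 reads. It contains all of MYH1, which makes up 31.0% of it, and 4105 bp of MYH4. All of the sequence between MYH4 and MYH1 also lies in it, so it may be longer than the gene itself. The listed score and peaks of MYH2 are those of the whole interval. The score of MYH2 as listed was 69.2 (67.5 to 71.0). With the reads and length of MYH1 taken out, 4191 reads over 58.3 kb remained, or 71.9 (69.8 to 74.1). MYH1 itself (chr17:10395624-10421860) held 1660 reads over 26.24 kb, a score of 63.3 (60.3 to 66.4), with a single peak of 1050 bp inside it (4% of its length). The MYH2 interval outside MYH1 was 1.14 times MYH1 (1.07 to 1.20).

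Within MYH2 peaks were most numerous toward the start, while cover was alike in its first 50% (11.9%) and its last 50% (12.4%). Its interval held 10 peaks over 12.2% of its length, 1 of which is the peak of MYH1. The 31.4 kb between MYH1 and the start of MYH2 had 7 peaks and 16.0% cover, and the 26.9 kb on the other side of MYH1 had 2 peaks and 15.6% cover. A peak of 1650 bp at chr17:10451701-10453350 lay over the start of MYH2, reaching 76 bp upstream, and a peak of 300 bp directly adjoined it. MYH2 was the only myosin of the cluster with a peak in the window from 250 bases before to 50 bases after its start. With ACTA1 and MYH6 this made 3 of the 10 genes, all with that window wholly in peaks; 9.52% of all symbols had a peak in the window and 7.26% had it wholly in peaks, and among protein-coding symbols the shares were 8.28% and 6.31%.

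The upstream sequences of MYH2 and MYH1 are shown because they share a stretch while only MYH2 had a peak at its start. They are the 250 bases before the RefSeq start, chr17:10549659-10549908 and chr17:10518543-10518792 (GRCh38.p14, minus strand). Capitals mark the longest stretch that the windows of MYH1, MYH2, MYH4 and MYH8 have in common, 15 bases.
MYH2: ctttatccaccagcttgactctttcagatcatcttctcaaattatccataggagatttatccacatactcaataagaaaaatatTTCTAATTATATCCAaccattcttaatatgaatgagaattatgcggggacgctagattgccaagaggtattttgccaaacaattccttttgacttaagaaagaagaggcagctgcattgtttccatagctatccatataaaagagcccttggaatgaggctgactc
MYH1: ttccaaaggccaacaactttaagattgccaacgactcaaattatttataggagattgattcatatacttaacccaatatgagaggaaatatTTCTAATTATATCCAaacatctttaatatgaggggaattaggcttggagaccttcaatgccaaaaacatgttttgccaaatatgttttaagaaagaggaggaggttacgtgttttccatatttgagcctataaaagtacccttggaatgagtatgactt
The shared stretch TTCTAATTATATCCA begins 166 bases before the start in MYH2, 159 in MYH1, 158 in MYH4 and 144 in MYH8. It was picked as common to these 4 windows, so that they hold it was fixed in advance. No other of the 27305 genes with a RefSeq window has it on either strand. How often a stretch of this length recurs was not tested. The nearest peak lay 14110 bp from the start of MYH1, 11625 bp from that of MYH4 and 3617 bp from that of MYH8; those of MYH1 and MYH8 were inside the gene and that of MYH4 upstream of it. The windows of these 4 genes were AT-rich, with a GC content of 36.4% in MYH2, 33.6% in MYH1, 42.4% in MYH4 and 40.4% in MYH8, below the median of 58.0%. TATAAA begins 31 bases before the start in MYH1, MYH2 and MYH4 and 29 in MYH13. A MEF2 box, searched on both strands, was found in MYH1 and MYH8, and in 2.80% of all windows. CANNTG was present in MYH2, MYH4, MYH8 and MYH13.

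For the stretches between the myosin genes the level could only be bounded. AC005323.1, an opposite-strand interval of 241 kb that spans MYH8, MYH4, MYH1 and MYH2, held 14896 reads, or 61.7 reads per kb (60.8 to 62.7). With the reads of MYH8, MYH4 and MYH2 taken out, the remaining 103 kb had between 52.2 and 68.8 reads per kb. The bounds arise because reads in the overlap of MYH4 and MYH2 are counted in both. The upper bound would need all reads of MYH4 to lie in the 4105 bp that it shares with MYH2. With reads spread evenly over MYH4 the level would lie nearer the lower bound. A second, short interval of AC005323.1 inside MYH2, 2.78 kb long, scored 72.9 (63.3 to 83.7).

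The share of the cluster in peaks was close to that of the genome with all peaks and lower with wide peaks alone. Its span had 26 peaks, from 300 to 2700 bp wide with a median of 750 bp, and 6.46% of it was covered, against 6.40% of chromosome 17 and 6.25% of the genome. With peaks of 1000 bp or more it kept 8 peaks and 3.63% cover, against 5.18% of chromosome 17 and 4.97% of the genome. The gene intervals together had 6.71% and the 3 gaps between them 5.95%. The sequence on both sides of MYH1 counts here as gene interval and not as gap, because the MYH2 interval contains it. The gap between MYH8 and MYH4, 21.3 kb, had no peak, and that between MYH2 and MYH3, 78.6 kb, had 10 and 8.12% cover.

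MYH3, at one end of the cluster, was its lowest gene and had no peak. It held 982 reads over 27.62 kb (chr17:10531844-10559465). The last peak of the cluster ended 31694 bp before its interval and the next began 114986 bp beyond it. MYH3 thus lay within 174 kb without a peak, longer than 98.3% of the stretches between neighbouring peaks. That share counts stretches and not bases, and long stretches take up more sequence. It therefore does not show how rare such a position is for a gene. The score of MYH3 was 2.46 times that of SCO1 (2.14 to 2.84), a cytochrome oxidase assembly gene next to it, which scored 14.4 (12.7 to 16.4). C17orf48 and TMEM220 followed at 14.2 (12.2 to 16.3) and 18.7 (16.7 to 20.9), without peaks. On the other side of the cluster GAS7 scored 38.4 (37.7 to 39.1), and MYH13 over GAS7 was 1.65 (1.59 to 1.71). GAS7 scored above MYH3 and above the median of chromosome 17.

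Both flanks held genes that scored above the cluster. Beyond GAS7, RCVRN scored 80.0 (74.3 to 86.1) and GLP2R 93.3 (91.0 to 95.6), both above every myosin of the cluster. AC027045.1 scored 65.8 (62.2 to 69.5), an interval that includes the pooled 62.3 of the cluster. With GAS7 these 4 intervals of 1 kb or more in the flank of 500 kb had a median of 72.9, and 9.18% of that flank lay in peaks. On the other side, beyond TMEM220, PIRT scored 77.2 (72.9 to 81.7), above every myosin of the cluster. AC002347.2 scored 66.4 (61.2 to 71.9), which also includes the pooled score. The 5 intervals of that flank, with a median of 18.7 and 6.69% of the flank in peaks, thus fell into 3 low and 2 high ones. In flanks of 1000 kb the medians were 63.2 and 60.3.

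**Figure D3:**
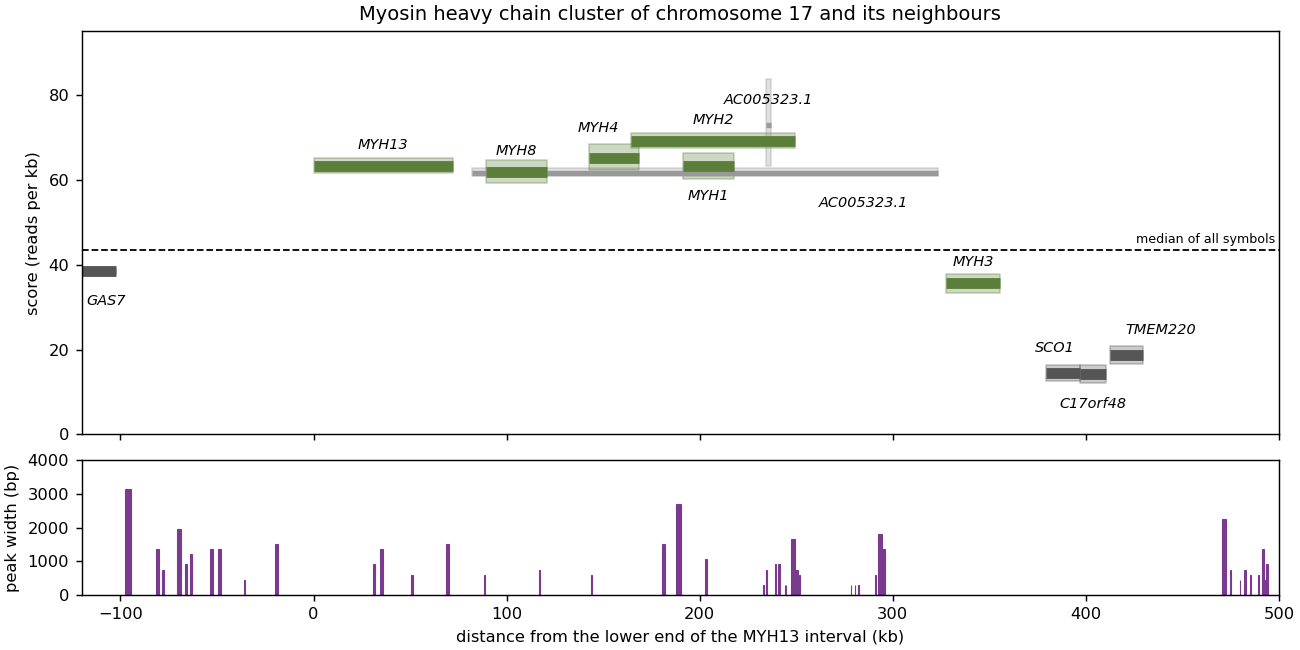
Top, score in reads per kb of the gene intervals of 1 kb or more across the chromosome 17 cluster, by distance in kb from the lower end of MYH13, with 95% Poisson intervals as shading; the myosins are green, AC005323.1 light grey and other genes dark grey. Bottom, the width in bp of each peak at its place; the first 5 myosins lie between 61.9 and 69.2, MYH3 at 35.6 and SCO1 at 14.4.

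The actins and myosins of non-muscle and smooth muscle cells had a lower median score. The median over these 8 genes was 38.0. The median of all symbols was exceeded by 3 of them, that of protein-coding symbols by 6, and 4 had a peak. Of protein-coding symbols 37.5% exceeded the median of all symbols and 43.6% had a peak, and 36.8% of all symbols had one. ACTB, the cytoplasmic beta actin, scored 15.5 (14.2 to 16.8), and ACTG1, the gamma form, scored 39.2 (32.3 to 47.3), both without a peak. ACTA1 was 10.0 times ACTB (8.82 to 11.4) and 3.95 times ACTG1 (3.20 to 4.91), and ACTC1 was 2.16 times ACTG1 (1.77 to 2.67). The interval of ACTB is 36.6 kb long, against 2.83 kb for ACTG1 and 2.85 kb for ACTA1. It may be longer than the gene itself, so the ratio to ACTB compares listed intervals and not gene bodies. Of the non-muscle myosins MYH9 scored 16.9 (16.1 to 17.7), MYH10 49.8 (48.7 to 50.9) and MYH14 73.3 (71.6 to 74.9), so the 3 genes covered a range of 4.33 times (4.12 to 4.56). MYH14 lies on chromosome 19 and had 22.2% of its interval in 15 peaks, more than any myosin of the chromosome 17 cluster. MYH11, the smooth muscle myosin, scored 46.6 (45.6 to 47.7). Of the 10 striated muscle genes MYH3 alone scored below ACTG1, but the interval of ACTG1, on 111 reads, contains that of MYH3. The smooth muscle actins ACTA2 and ACTG2 scored 36.7 (35.1 to 38.3) and 35.9 (33.7 to 38.2), without a peak. MYH3 over ACTA2 was 0.970 (0.898 to 1.05). MYH14 scored above all 6 genes of the cluster, so the 2 groups overlap in level. The sarcomeric-type myosins outside the set scored 25.6 (23.7 to 27.5) for MYH7B, without a peak, and 51.9 (50.7 to 53.1) for MYH15; MYH16 was not analysed here.

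The other sarcomere genes had a lower median score than the striated muscle set, with wide variation. In the lists of myosin light chains, troponins, tropomyosins and nebulin, titin and the Z-disc, myosin-binding proteins, and the further heavy chains, 46 genes were in the table, with a median of 36.9. The median of all symbols was exceeded by 21 of them, and 20 had a peak. Of protein-coding symbols 37.5% exceeded it and 43.6% had a peak, and 36.8% of all symbols had one. The median of these genes together thus lay below that of all symbols and above that of protein-coding ones, 34.3. The 8 troponins, the calcium switch of the thin filament, had a median of 21.2, from TNNI2 at 8.54 (5.42 to 12.8) to TNNI1 at 68.6 (65.4 to 71.8). The 8 light chain and kinase genes had a median of 40.0, from MYLPF at 18.4 on 59 reads to MYL7, the atrial light chain, at 71.3 (61.1 to 82.6). The 8 tropomyosin, nebulin and cap genes had 35.3, from TMOD4 at 19.1 (15.7 to 22.9) to TPM1 at 101 (97.3 to 105). TPM1 is among the genes between 60 and 90 Mb of chromosome 15. The 14 genes of titin, the Z-disc and the M-band had 35.5, from TCAP at 22.0 (16.4 to 28.8) to MYOM2, a myomesin on chromosome 8, at 194 (192 to 197). For TPM1 and MYOM2 the extra copy and the mark cannot be told apart. The 6 myosin-binding proteins and chaperones had the highest median of these, 54.5, and 5 of them exceeded the median of all symbols. In it UNC45B, the myosin chaperone of striated muscle, scored 127 (123 to 130) and MYBPC3, the cardiac myosin-binding protein C, 18.7 (16.9 to 20.7).

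**Figure D4:**
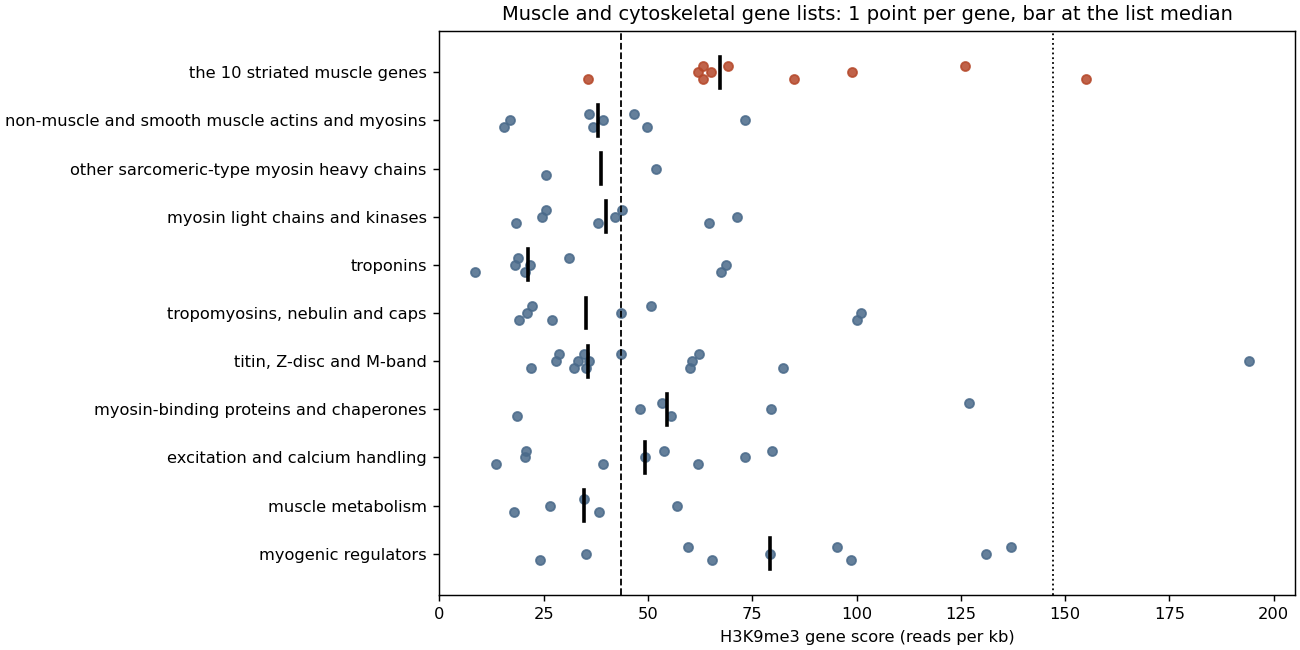
H3K9me3 gene score in reads per kb, 1 point per gene, for the 10 genes (top row) and the lists of other muscle and cytoskeletal genes, with a black bar at each list's median; the dashed line is the median of all symbols (43.5) and the dotted line their 90th percentile (147). The 10 genes have a median of 67.2 and the non-muscle and smooth muscle list 38.0.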

How the data were processed

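The authors deposited raw read counts per gene interval, the interval length in kb and a gene score, which equals the count divided by the length (largest difference 3.03e-06 over 40237 intervals) and is not scaled to depth, IgG or copy number. They also deposited a list of peak positions without height or significance. Per the submitters' processing notes the tools were Bowtie2 and MACS and the build hg19, with no roles stated; read filters and the role of IgG were not given in the sources used here. Reads sum to 78512210 over intervals that overlap; the depth of the library is unknown.

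For the 280 symbols with more than 1 interval the one with the highest score was used (none is among the 10 genes). Peak overlap meant 1 bp or more. Score intervals are exact Poisson and score ratios have exact conditional binomial intervals, both at 95%; the peak and interval functions were tested on simulated data. RefSeq (GRCh38.p14) gave gene types for 22180 of 35812 symbols and upstream sequences for 8 of the 10 genes. The genes, lists and rules were chosen with earlier results of these data known. Named genes are the 10, fixed comparison genes, the highest and lowest of each list, and the neighbours of the cluster; other neighbours and list members were chosen after their values were seen. Alternatives covered the interval per symbol, the symbols compared, peak width, overlap, widened intervals and flanks. Computation used scipy 1.17.1, pandas 2.3.3 and numpy 2.4.6 under Python 3.11.15, and matplotlib 3.10.9 drew the figures.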

Additional observations from a re-analysis of the deposited data

How the results depend on the processing

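The count of 9 of the 10 genes above the median held with the longest or the mean interval per symbol, outside chromosomes 8, 15 and 19 and among symbols with 1 or more reads. It was 10 among protein-coding symbols and among intervals of 2 to 50 kb, where MYH3 moved from the percentile 40.5 to 51.8 and 51.4. In both of these settings the non-muscle and smooth muscle list had 6 genes above the median in place of 3. With peaks of 1000 bp or more, 6 of the 10 genes had a peak, and the chromosome 17 cluster kept 8 peaks over 3.63% of its span; ACTC1, MYH4 and MYH8 then had 0% cover. With intervals widened by 5 kb, ACTA1 had 30.3% cover and MYH6 19.7%. In flanks of 1000 kb the median score was 63.2 on the GAS7 side and 60.3 on the SCO1 side, in place of 72.9 and 18.7, and cover was 7.56% and 6.88%, in place of 9.18% and 6.69%. The pooled score of the cluster was 59.2 without MYH2 and 65.4 without MYH3. No paired analysis was possible because the study has 1 library per antibody. With 1 library, counting error is the only error known, and reads that fit several similar myosin or actin genes could not be examined here.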

Other observations

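Muscle genes outside the sarcomere showed no common level. The 9 myogenic regulators had a median score of 79.3 reads per kb. Of these genes 7 exceeded the median of all symbols and 6 had a peak. For protein-coding symbols the shares were 37.5% above that median and 43.6% with a peak, and 36.8% of all symbols had a peak. NKX2-5, a cardiac homeobox factor, scored 137 (125 to 150) with 93.5% of its interval in 1 peak, and MYF6 scored 131 (116 to 148) without a peak. MYF5, its neighbour on chromosome 12, scored 95.2 (84.1 to 107) with 54.7% of its interval in 2 peaks. MYOD1 scored 98.7 (86.9 to 112) without a peak, and MEF2C was lowest at 24.1 (23.4 to 24.8). The short intervals of MYF6, MYF5 and MYOD1, 1.98, 2.76 and 2.56 kb, rest on 259, 263 and 253 reads.

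The 9 genes of excitation and calcium handling had a median of 49.2, from ATP2A2, the calcium pump also used outside muscle, at 13.6 (12.8 to 14.5) to SLN, its small regulator sarcolipin, at 79.7 (74.7 to 84.8). The 5 genes of muscle metabolism had a median of 34.6, with PYGM, the muscle glycogen phosphorylase, at 17.9 (15.7 to 20.3) and CKMT2, the sarcomeric mitochondrial creatine kinase, at 57.0 (54.4 to 59.6).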
